A study of Mus musculus with 8 samples.

Results

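Ctnnb1, the 4 TCF/LEF factor genes Lef1, Tcf7, Tcf7l1 and Tcf7l2, and the feedback genes Axin2, Sp5 and Nkd1 were followed across nephron progenitors with different Smo genotypes. These 8 genes were chosen by name as the nuclear arm of the Wnt pathway and its common readouts, with earlier results of these data known. They are 8 of the 24539 gene symbols listed and 8 of the 13459 genes with enough counts to be tested. The cells came from mouse kidneys at E18.5 and were sorted for Six2GFPcre, a transgene in which regulatory sequence of the progenitor gene Six2 drives a fusion of GFP and Cre. Every group carried this transgene, the controls included, and each group had 2 libraries. Smo, the membrane transducer of Hedgehog signals, was conditional on both chromosomes in the KO-labelled group (Smo c/c) and on 1 chromosome in the Het-labelled group (Smo c/+). It was wild type on both in the WT-labelled group (Smo +/+). The SmoM2-labelled group was also Smo +/+ and carried Rosa26 SmoM2/+, an allele that expresses the constitutively signalling SmoM2 protein once Cre has acted. Recombination is limited to cells that express, or descend from cells that expressed, Six2GFPcre.

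Beta-catenin, the product of Ctnnb1, is held low by a destruction complex that phosphorylates it and marks it for degradation. A Wnt signal at a Frizzled and Lrp receptor halts that complex, and beta-catenin enters the nucleus and binds TCF/LEF proteins on DNA. Tcf7l1 acts mainly as a repressor, Lef1 and Tcf7 mainly activate with beta-catenin, and Tcf7l2 can do either. In the developing kidney, Wnt9b from the ureteric bud acts through beta-catenin both on the renewal of nephron progenitors and on their commitment to the nephron, during which Lef1 is switched on.

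Smo was read first because it checks the labels. It stood at 13.1 and 11.1 CPM in the KO-labelled libraries, where CPM is a gene's count scaled to the size of its library, and pairs of values give replicate 1 first. The Het-labelled libraries stood at 14.4 and 23.9 CPM, the WT-labelled at 363 and 375 CPM, and the SmoM2-labelled at 605 and 629 CPM. The level in the Het-labelled libraries lay near that of the KO-labelled ones and went against the label, so groups are named as labelled and every direction carries that doubt. Listed counts ran from 4422305 to 4442697 in the KO-labelled, from 5929770 to 7577590 in the Het-labelled and from 9037109 to 10305398 in the other libraries. Both KO-labelled libraries had the male pattern of Y-linked and Xist counts and both Het-labelled libraries the female pattern, while WT- and SmoM2-labelled replicates 1 were male and replicates 2 female. Label and sex therefore cannot be told apart within the KO- and Het-labelled libraries. A sex covariate rests on the WT- and SmoM2-labelled libraries alone. All 9 nephron progenitor markers were present in all 8 libraries. They summed to 4469 and 3906 CPM in the KO-labelled and 5311 and 4817 CPM in the Het-labelled libraries. The WT-labelled libraries summed to 3682 and 3304 CPM and the SmoM2-labelled to 3628 and 3559 CPM. The labels do not say whether the 2 libraries of a group came from separate embryos or litters, so p-values measure the spread between these samples. In bulk RNA, fewer cells of a type and less RNA per cell cannot be told apart.

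The promoters of the 3 feedback genes are shown because these genes are read as reporters of the same pathway and did not move together here. Each window is the 250 bases before a RefSeq transcription start on GRCm38.p6, written 5′ to 3′ on the gene's strand. Capitals mark matches to the TCF/LEF letters, CTTTG followed by a pair of bases that are each A or T, on either strand.
Axin2 (chr11:108920099-108920348, plus strand): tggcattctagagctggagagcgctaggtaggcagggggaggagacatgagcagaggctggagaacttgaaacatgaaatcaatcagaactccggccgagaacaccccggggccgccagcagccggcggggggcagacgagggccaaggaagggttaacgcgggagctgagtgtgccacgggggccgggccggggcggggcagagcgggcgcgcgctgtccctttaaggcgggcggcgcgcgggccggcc
Sp5 (chr2:70474673-70474922, plus strand): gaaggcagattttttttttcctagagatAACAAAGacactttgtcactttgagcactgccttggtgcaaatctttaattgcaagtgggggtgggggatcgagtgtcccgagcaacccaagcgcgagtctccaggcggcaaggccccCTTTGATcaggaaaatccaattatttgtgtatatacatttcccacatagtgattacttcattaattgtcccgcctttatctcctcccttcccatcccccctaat
Nkd1 (chr8:88527383-88527632, plus strand): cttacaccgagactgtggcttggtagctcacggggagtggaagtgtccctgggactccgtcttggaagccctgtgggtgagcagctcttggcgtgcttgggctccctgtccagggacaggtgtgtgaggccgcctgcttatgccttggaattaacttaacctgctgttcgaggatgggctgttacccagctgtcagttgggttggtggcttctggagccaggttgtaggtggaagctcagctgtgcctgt
The Sp5 window held 2 matches, CTTTGTT on the opposite strand 222 bases before the start and CTTTGAT on the gene's strand 104 bases before it. The Axin2 and Nkd1 windows held none, which says only that these letters are not in these windows. By GENCODE, Axin2 spans bases 108920349 to 108950783 of chromosome 11 and Sp5 bases 70474923 to 70477729 of chromosome 2, so that both windows end where the gene begins. Nkd1 spans bases 88521354 to 88594884 of chromosome 8, and its window lies inside that span. All 8 genes matched the RefSeq table, with 14 windows among them. Besides Sp5, 1 window of Lef1 and 1 of Tcf7l2 held a match, so 3 of 14 windows did, against 14.84% of 32851 mouse windows of the same length. The Gli letters GACCACCCA, searched on both strands, were in none of the 14 windows and in 0.2253% of all windows. A match describes letters and is not a binding site.

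On the authors' RPKM scale, which is per length and allows genes to be compared, Ctnnb1 was by far the highest of the 8, from 221 to 301 RPKM over the libraries. Tcf7l1 followed with 60.02 to 132 RPKM. Nkd1 (9.19 to 25.5), Axin2 (11.6 to 29.0) and Tcf7 (12.1 to 19.2 RPKM) had overlapping ranges, then came Tcf7l2 (6.48 to 10.1) and Sp5 (3.82 to 10.8 RPKM). Lef1 was the lowest, from 0.737 to 4.73 RPKM, with between 25 and 94 reads in each library, so its values are the least precise.

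**Figure D1:**
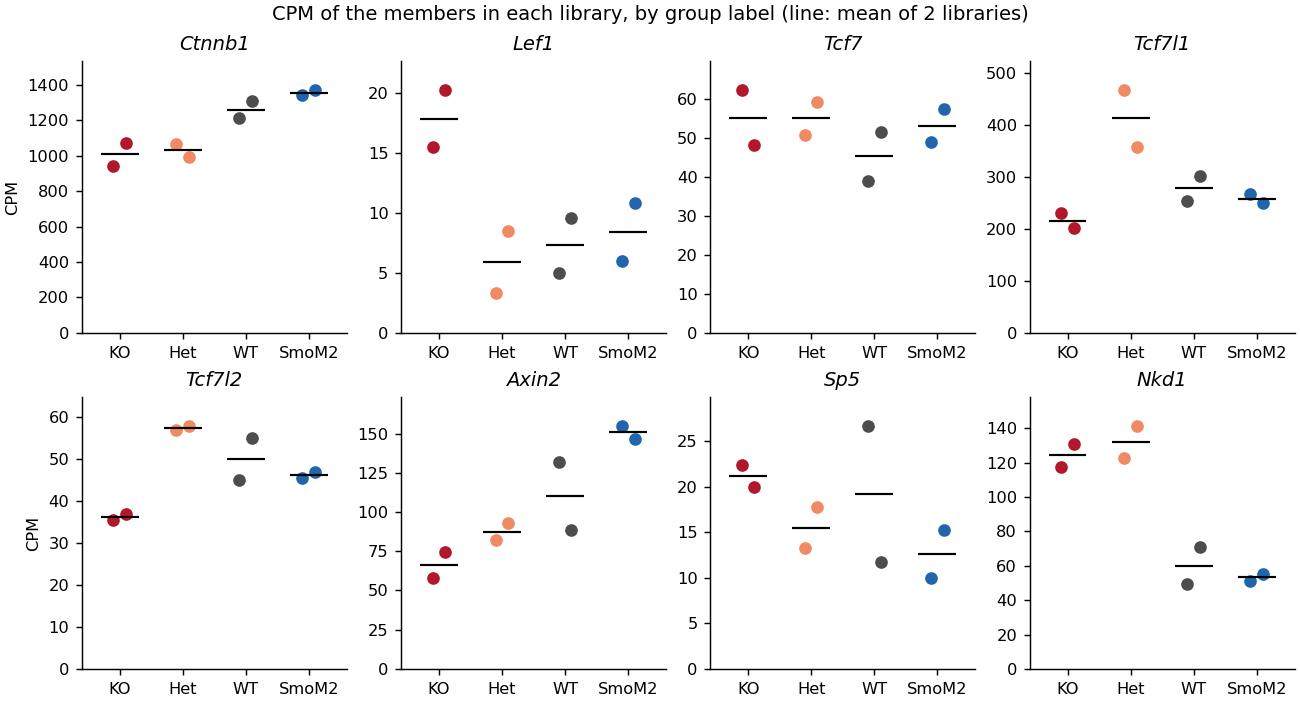
Level of each of the 8 genes in CPM (vertical axes, each from 0) in the 8 libraries, by labelled group (horizontal axis); points are libraries and lines are group means of 2. Nkd1 is high in all 4 KO- and Het-labelled libraries (118 to 141 CPM) and low in the other 4 (49.2 to 70.7 CPM), and Lef1 is highest in the 2 KO-labelled libraries.

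Tested over all 4 groups at once, 6 of the 8 genes differed, where 41.0% of all tested genes did. The 2 that did not pass were Tcf7 (edgeR adjusted p 0.452) and Sp5 (edgeR adjusted p 0.280). Between KO- and WT-labelled libraries 4 of the 8 were called, against 23.0% of all genes (11.6% higher and 11.4% lower): Lef1 and Nkd1 rose, and Axin2 and Tcf7l2 fell. Between Het- and WT-labelled libraries 2 were called, against 25.3% (13.1% higher and 12.2% lower): Nkd1 and Tcf7l1 both rose. Between SmoM2- and WT-labelled libraries none of the 8 was called by edgeR or by DESeq2, against 0.223% of all genes. Among the 8, Axin2 alone had an unadjusted edgeR p under 0.05, as did 1036 of all 13459 tested genes. KO- against Het-labelled libraries gave 3 calls against 9.43% of genes (4.33% higher and 5.10% lower), KO- against SmoM2-labelled libraries gave 3 against 32.5% (16.5% higher and 16.0% lower), and Het- against SmoM2-labelled libraries gave 4 against 33.7% (16.9% higher and 16.7% lower). The comparisons share libraries and are not independent of each other. The median log2 change of the 8 was -0.09 in the KO- against WT-labelled comparison, where that of all genes was 0.03, since members moved both ways. Without Het-labelled replicate 1 no member was called between KO- and Het-labelled libraries, and the number of all genes called there went from 1269 to 36. Without KO-labelled replicate 1 only Nkd1 stayed called between KO- and WT-labelled libraries.

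**Figure D2:**
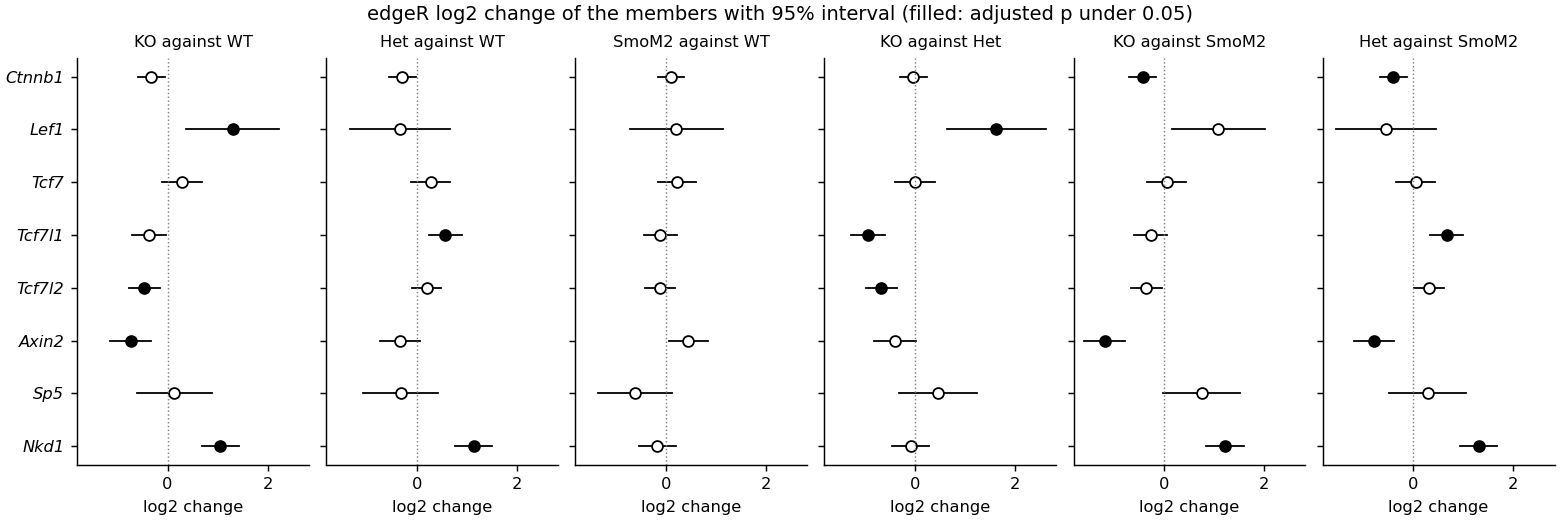
edgeR log2 change (horizontal axes) of the 8 genes in the 6 comparisons between labelled groups; bars are 95% intervals and filled points have an adjusted p under 0.05. Nkd1 is filled and above 1 in the 4 comparisons of a KO- or Het-labelled with a WT- or SmoM2-labelled group, and no point is filled for SmoM2 against WT.

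Ctnnb1 stood at 945 and 1072 CPM in the KO-labelled and at 1066 and 995 CPM in the Het-labelled libraries. It stood at 1215 and 1307 CPM in the WT-labelled and at 1344 and 1370 CPM in the SmoM2-labelled libraries. All 4 KO- and Het-labelled libraries thus lay below the other 4, with no overlap. The difference passed the test only against the SmoM2-labelled libraries: -0.43 for the KO-labelled (SE 0.12, edgeR adjusted p 0.0209) and -0.40 for the Het-labelled (SE 0.12, edgeR adjusted p 0.0273). These are 1.35-fold and 1.32-fold lower levels. Against the WT-labelled libraries the log2 changes were -0.32 (95% interval -0.59 to -0.05, edgeR adjusted p 0.0788) and -0.29 (-0.56 to -0.02, edgeR adjusted p 0.103). DESeq2 called the first of these at -0.35. The calls against the SmoM2-labelled libraries did not hold without either of the SmoM2-labelled libraries, nor, for the KO-labelled comparison, without KO-labelled replicate 1 (-0.34), nor, for the Het-labelled one, without either Het-labelled library.

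The makeup of the TCF/LEF factors was described on the RPKM scale. Tcf7l1 made up 69.2% to 83.6% of the summed RPKM of the 4 factor genes in every library, Tcf7 9.58% to 19.9%, Tcf7l2 6.35% to 8.59% and Lef1 0.468% to 5.45%. The sums ranged from 86.7 to 109.5 RPKM in the KO-, WT- and SmoM2-labelled libraries and were 157.6 and 129.6 RPKM in the Het-labelled ones. In the KO-labelled libraries Lef1 held 3.68% and 5.45%, against at most 2.45% in any other library. Tcf7 held 19.9% and 17.45% there, against at most 17.38% in any other library, so its shares were barely set apart. No pairwise change in the level of Tcf7 passed. Such shares are descriptions of 2 libraries a group and were not tested.

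**Figure D3:**
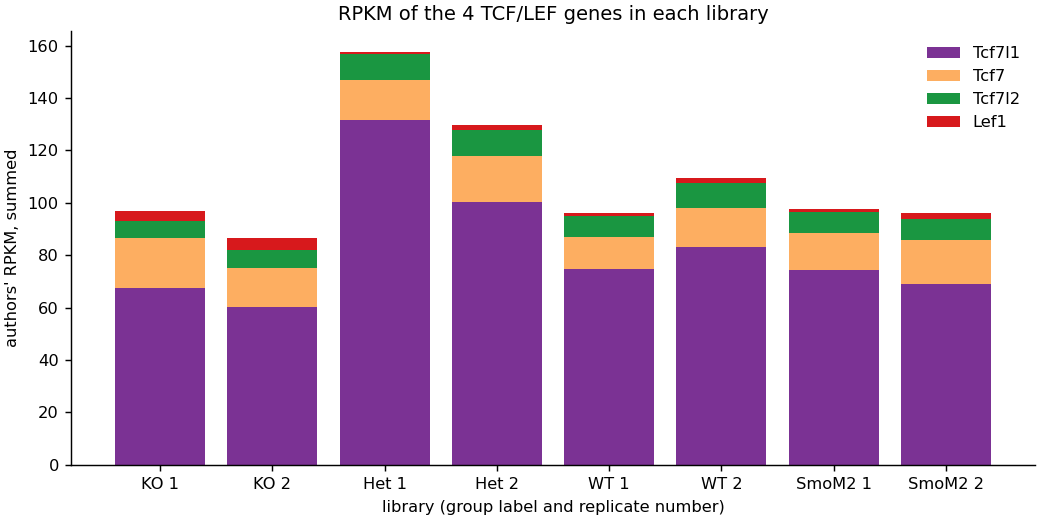
Summed RPKM (vertical axis) of Lef1, Tcf7, Tcf7l1 and Tcf7l2, stacked, in each of the 8 libraries (horizontal axis). Tcf7l1 fills most of every bar, and the 2 Het-labelled bars, 157.6 and 129.6 RPKM, are the tallest.

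Lef1, a factor switched on as progenitors commit to the nephron, stood at 15.5 and 20.2 CPM in the KO-labelled libraries. Its other values were 3.34 and 8.49 CPM in the Het-labelled, 5.03 and 9.58 in the WT-labelled and 6.03 and 10.9 CPM in the SmoM2-labelled libraries. Both KO-labelled libraries lay above the other 6, while the other 3 groups overlapped. Lef1 was 2.46-fold higher in KO- than in WT-labelled libraries, a log2 change of 1.30 (SE 0.43, edgeR adjusted p 0.0474). It was 3.09-fold higher in KO- than in Het-labelled libraries, with a log2 change of 1.63 (SE 0.45, edgeR adjusted p 0.0451). Against the SmoM2-labelled libraries the change of 1.09 did not pass (SE 0.42, edgeR adjusted p 0.0701) and passed in 8 of 17 alternative analyses. The call against the WT-labelled libraries was lost without either KO-labelled library (adjusted p 0.107 and 0.194), without WT-labelled replicate 1 (0.89, adjusted p 0.206) and with GC and length trends removed (1.37, so that the p alone moved, adjusted p 0.0533). That against the Het-labelled libraries was lost without either KO-labelled library, without Het-labelled replicate 1 (1.07, adjusted p 0.260) and with GC and length trends removed (1.57, adjusted p 0.0900).

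The summed level of 6 markers of committing nephrons, Wnt4, Fgf8, Pax8, Lhx1, Jag1 and Ccnd1, was also highest in the KO-labelled libraries. They summed to 1310 and 1597 CPM in the KO-labelled libraries and to between 425 and 719 CPM in the other 6, with none at 0 anywhere. The markers did not all follow Lef1: Wnt4 was not called between KO- and WT-labelled libraries (0.38, edgeR adjusted p 0.451), and Fgf8 (3.46) and Pax8 (0.79) also rose between Het- and WT-labelled libraries, where Lef1 changed by -0.33 and was not called. Their part in the Lef1 result was not tested. The 7 endothelial markers summed to at most 4.87 CPM, and the 7 immune markers to at most 7.53 CPM, in every library. Of the 8 markers of the differentiated nephron, between 1 and 4 had no count in each library, and they summed to between 16.3 and 52.0 CPM.

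Tcf7l1, the repressing factor, stood at 230 and 201 CPM in the KO-labelled libraries and at 467 and 358 CPM in the Het-labelled ones. It stood at 254 and 302 CPM in the WT-labelled and at 267 and 249 CPM in the SmoM2-labelled libraries. Both Het-labelled libraries lay above all others and the KO-labelled below all others, so the 2 groups with the lowest Smo lay at opposite ends. The log2 change was -0.94 in KO- against Het-labelled (SE 0.15, edgeR adjusted p 0.00737, a 1.92-fold lower level), 0.57 in Het- against WT-labelled (SE 0.15, edgeR adjusted p 0.0179) and 0.68 in Het- against SmoM2-labelled libraries (SE 0.15, edgeR adjusted p 0.00578). The KO- against WT-labelled change of -0.37 did not pass (edgeR adjusted p 0.0992). Het-labelled replicate 1 weighed in all 3 calls: without it the changes were -0.74 (adjusted p 0.0920), 0.33 (0.229) and 0.43 (0.101). With GC and length trends removed, the 2 Het-labelled rises were 0.24 and 0.30 and did not pass. The rise against the WT-labelled libraries also did not pass without WT-labelled replicate 1 (0.45). That against the SmoM2-labelled libraries did not pass without SmoM2-labelled replicate 2 (0.59).

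Tcf7l2 was at 35.4 and 36.8 CPM in the KO-labelled, 56.9 and 57.7 in the Het-labelled, 44.9 and 54.9 in the WT-labelled and 45.4 and 46.8 CPM in the SmoM2-labelled libraries. As with Tcf7l1, the KO-labelled libraries were the lowest and the Het-labelled the highest. The level was 1.38-fold lower in KO- than in WT-labelled libraries (log2 change -0.47, SE 0.14, edgeR adjusted p 0.0355) and 1.59-fold lower than in Het-labelled libraries (-0.67, SE 0.14, edgeR adjusted p 0.0188). The first call failed in 8 of 17 alternatives, DESeq2 (adjusted p 0.0548), the fit of the 2 groups alone (0.0657) and the sex of the embryos as a covariate (0.0816) among them, and the second in 5, the sex covariate (-0.50) and each of the 4 single libraries left out.

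Tcf7 stood at 62.2 and 48.1 CPM in the KO-labelled, 50.8 and 59.3 in the Het-labelled, 39.0 and 51.6 in the WT-labelled and 49.0 and 57.3 CPM in the SmoM2-labelled libraries. All 4 groups overlapped, and none of its 6 pairwise changes passed. The largest, 0.29 for KO- against WT-labelled libraries, had a 95% interval from -0.11 to 0.68 (edgeR adjusted p 0.272).

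Axin2 makes the scaffold of the destruction complex and is itself switched on by beta-catenin, which makes it a common readout of the pathway. It stood at 58.2 and 74.2 CPM in the KO-labelled and 82.2 and 92.7 CPM in the Het-labelled libraries. The WT-labelled libraries stood at 132 and 88.8 CPM and the SmoM2-labelled at 155 and 147 CPM. KO-labelled libraries were the lowest and SmoM2-labelled the highest, and the 2 WT-labelled libraries spanned much of the gap between them. Axin2 was 2.27-fold lower in KO- than in SmoM2-labelled libraries, with a log2 change of -1.19 (SE 0.19, edgeR adjusted p 0.00101), which was called in all 17 alternatives. It was 1.66-fold lower than in WT-labelled libraries (-0.74, SE 0.19, edgeR adjusted p 0.0173), and Het-labelled libraries lay 1.72-fold below SmoM2-labelled ones (-0.79, SE 0.18, edgeR adjusted p 0.00715). The KO- against WT-labelled call was lost without KO-labelled replicate 1 (-0.57, adjusted p 0.130) and without WT-labelled replicate 1 (-0.43, adjusted p 0.126). The Het- against SmoM2-labelled call was lost without Het-labelled replicate 1 (adjusted p 0.0503). The SmoM2- against WT-labelled change was 0.45 (95% interval 0.06 to 0.84, edgeR adjusted p 0.561), and it was 0.76 without WT-labelled replicate 1 and 0.21 without replicate 2.

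The 8 stromal markers summed to 637 and 93.6 CPM in the KO-labelled, 153 and 331 in the Het-labelled, 509 and 334 in the WT-labelled and 674 and 545 CPM in the SmoM2-labelled libraries. Single markers did not follow this sum. Foxd1, a transcription factor of the cortical stroma, lay at 3.70 to 12.8 CPM in the KO-labelled, 14.6 to 22.5 in the Het-labelled, 171 to 197 in the WT-labelled and 301 to 385 CPM in the SmoM2-labelled libraries. Its group means stood in the same order as those of Axin2, which held for no other stromal marker. The Acta2 means were 23.9 CPM in the KO-, 7.84 in the Het-, 8.73 in the WT- and 4.37 CPM in the SmoM2-labelled libraries. Foxd1 fell between KO- and WT-labelled libraries by 4.48 on the log2 scale (edgeR adjusted p 4.9e-05) and between Het- and WT-labelled libraries by 3.30 (edgeR adjusted p 0.000101). The high sum of KO-labelled replicate 1 came mainly from the collagen genes Col1a1 (380 CPM, and 32.9 CPM in the other KO-labelled library) and Col3a1 (158 and 17.6 CPM). Of the other markers only Acta2 was called between KO- and WT-labelled libraries (1.45, edgeR adjusted p 0.0179). Thus 1 of the 8 (12.5%) rose and 1 fell there, near the 11.6% and 11.4% of all genes. Between Het- and WT-labelled libraries 1 of the 8 (12.5%) fell, near the 12.2% of all genes, and none rose. The part of stromal cells in the Axin2 differences was not tested.

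Nkd1 encodes an inhibitor that binds Dishevelled and, like Axin2, is induced by beta-catenin in many tissues. It stood at 118 and 131 CPM in the KO-labelled and 123 and 141 CPM in the Het-labelled libraries, against 49.2 and 70.7 CPM in the WT-labelled and 51.2 and 55.4 CPM in the SmoM2-labelled ones. The 2 pairs of groups did not overlap, and within each pair the values did. The summed level of the 5 erythroid markers divided the libraries in the same way, with 45.2 and 13.7 CPM in the KO-labelled and 24.9 and 19.9 CPM in the Het-labelled libraries against 2.77 to 7.87 CPM in the other 4. Of the 4 erythroid markers tested, 3 were higher in KO- and 2 in Het- than in WT-labelled libraries, against 11.6% and 13.1% of all genes. Hba-a1 and Hba-a2, both in the sum, had equal counts in every group and are not separate markers. The 9 nephron progenitor markers split the libraries likewise, with sums from 3906 to 5311 CPM against 3304 to 3682 CPM. Of these 9, 3 (33.3%) rose and 1 (11.1%) fell in KO- against WT-labelled libraries, where 11.6% of all genes rose and 11.4% fell. In Het- against WT-labelled ones 5 (55.6%) rose and none fell, where 13.1% of all genes rose and 12.2% fell. The part of either marker set in the Nkd1 result was not tested. Nkd1 was 2.08-fold higher in KO- than in WT-labelled libraries (log2 change 1.05, SE 0.17, edgeR adjusted p 0.00188) and 2.20-fold higher in Het- than in WT-labelled ones (1.14, SE 0.17, edgeR adjusted p 0.00109). Against the SmoM2-labelled libraries the changes were 1.22 (edgeR adjusted p 0.000486) and 1.31 (edgeR adjusted p 0.000284). All 4 calls held in all 17 alternatives, which made Nkd1 the only member called throughout in every comparison that called it. KO- and Het-labelled libraries differed by -0.09 (95% interval -0.45 to 0.28), and SmoM2- and WT-labelled libraries by -0.17 (-0.54 to 0.20). Nkd1 and Axin2 thus changed in opposite directions in KO- against WT-labelled libraries.

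Summed transcripts of 10 genes induced by tissue dissociation, such as Fos and Egr1, stood at 7885 and 7837 CPM in the Het-labelled and 3982 and 5840 CPM in the KO-labelled libraries, against 2810 to 4638 CPM in the other 4. The Het-labelled libraries were thus highest in this sum, in Tcf7l1 and in Tcf7l2. Single genes of the sum did not all follow it: the group means of Ier3, Atf3, Hspa1a and Hspa1b were highest in the SmoM2-labelled libraries. The part of dissociation in the Tcf7l1 and Tcf7l2 levels was not tested.

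Sp5, a zinc finger repressor among the most direct beta-catenin targets in the embryo, stood at 22.4 and 20.0 CPM in the KO-labelled and 13.2 and 17.8 CPM in the Het-labelled libraries. It stood at 26.7 and 11.8 CPM in the WT-labelled and 10.02 and 15.3 CPM in the SmoM2-labelled libraries. Between them, the WT-labelled pair spanned nearly the whole range of the others. The KO- against SmoM2-labelled change of 0.75 (95% interval -0.02 to 1.52, edgeR adjusted p 0.126) did not pass, although the libraries of these groups did not overlap, and it passed in 4 of 17 alternatives, at 0.72 with no filter on low counts, 0.74 and 0.70 without WT-labelled replicates 1 and 2, and 0.73 when only these 2 groups were fitted.

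Over the 8 libraries, Pearson's r of log2 CPM, a description without a test because the points share groups and their depths, was -0.83 between Axin2 and Nkd1 and -0.88 between Ctnnb1 and Nkd1. It was 0.82 between Ctnnb1 and Axin2 and 0.87 between Tcf7l1 and Tcf7l2. Lef1 and Tcf7l1 had an r of -0.75. Among 10234 genes with a mean log2 CPM of at least 3, those most like Lef1 were Snu13, a protein of small nucleolar ribonucleoproteins (r 0.98), Creg1 (0.98) and Fhl1, a LIM-domain protein (0.97). Most like Axin2 were Zfp334 (0.98), the kinase gene Map3k3 (0.97) and Slc35f6 (0.97). Ttc37 (0.996) and Fubp3 (0.99) were among the 3 most like Ctnnb1.

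The rest of the pathway was read from lists of genes, which were chosen with earlier results of these data known. When a compared library was left out or GC and length trends were removed, fewer of all genes were called too. List counts under those settings therefore cannot be set against the shares of the main fit. Beside the counts in each list stand the shares of all tested genes, which were 11.6% higher and 11.4% lower between KO- and WT-labelled libraries. Of 15 genes of the destruction complex and its regulators, 1 (6.67%) rose and 5 (33.3%) fell between these groups, with a median log2 change of -0.27. The genes that fell most were Tnks, a tankyrase that turns over Axin (-0.94, edgeR adjusted p 0.00476), Amer1, a membrane scaffold of the complex (-0.86, edgeR adjusted p 0.00166), and the kinase gene Gsk3b (-0.83, edgeR adjusted p 0.00518). Gsk3b had 126 to 146 CPM in the KO-labelled and 207 to 278 CPM in the WT-labelled libraries. The gene that rose was Gsk3a, its paralog (0.39, edgeR adjusted p 0.0313). Without KO-labelled replicate 1 no gene rose and 3 fell, and with GC and length trends removed no gene rose and 2 fell. Between Het- and WT-labelled libraries 2 rose and 2 fell, 13.3% each way, which is near the 13.1% and 12.2% of all genes: Apc2 (1.01, edgeR adjusted p 0.00198) and Gsk3a (0.51) rose, and Amer1 (-0.68) and Siah1a (-0.59) fell. The median there was -0.28, beside -0.02 for all genes. Without either Het-labelled library 1 rose and 1 fell.

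Of 22 receptors and transducers, 3 (13.6%) rose and 7 (31.8%) fell between KO- and WT-labelled libraries, against 11.6% and 11.4% of all genes, with a median log2 change of -0.15. Lgr6, an R-spondin receptor, rose by 2.34 (edgeR adjusted p 0.00160), with 7.83 to 13.1 CPM in the WT-labelled and 40.3 to 64.7 CPM in the KO-labelled libraries. Ror1, a Wnt5a receptor, fell by 2.23 (edgeR adjusted p 0.000451). The Frizzled receptor genes went both ways: Fzd10 (1.17) and Fzd7 (0.51) rose, and Fzd4 (-1.08), Fzd6 (-0.70) and Fzd3 (-0.49) fell, the last named to complete the Frizzled calls after its value was seen. Without KO-labelled replicate 1 there was 1 rise and 1 fall, and without WT-labelled replicate 2 there were 1 rise and 3 falls. Between Het- and WT-labelled libraries 9 (40.9%) rose and 3 (13.6%) fell, against 13.1% and 12.2% of all genes (median 0.14), with Lgr6 (1.78), Fzd7 (0.84) and Fzd1 (0.84) the largest rises and Fzd6 (-2.51), Ror1 (-1.45) and Lgr4 (-0.54) the falls. Without either Het-labelled library 3 rose and 2 fell.

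The nuclear co-regulators listed act with or against beta-catenin and TCF/LEF factors. Of the 20 tested, 1 (5%) rose and 9 (45%) fell between KO- and WT-labelled libraries, against 11.6% and 11.4% of all genes. Their median log2 change was -0.37. Pygo1, a co-activator that reads chromatin (-0.78, edgeR adjusted p 0.00396), the acetyltransferase gene Crebbp (-0.76, edgeR adjusted p 0.00739) and the kinase gene Hipk2 (-0.68, edgeR adjusted p 0.0125) fell most. Aes, a short Groucho-family protein, rose by 0.83 (edgeR adjusted p 0.00346), from 456 and 556 to 793 and 1006 CPM. Between KO- and Het-labelled libraries none rose and 8 (40%) fell, against 4.33% and 5.10% of all genes (median -0.33, beside 0.02 for all genes), led by Bcl9l, the adaptor between beta-catenin and Pygo (-0.88, edgeR adjusted p 0.00808), Hipk2 (-0.87) and Crebbp (-0.81). Between Het- and WT-labelled libraries 5 (25%) rose and 3 (15%) fell, against 13.1% and 12.2% of all genes (median 0.23), with the co-repressor gene Tle2 (0.81) and Aes (0.65) the largest rises. These counts shrank under single omissions: the KO- against WT-labelled falls were 4 without KO-labelled replicate 1, 4 without WT-labelled replicate 2 and 4 with GC and length trends removed. The KO- against Het-labelled falls were none without Het-labelled replicate 1 and between 3 and 4 without any of the other 3 libraries compared. The Het-labelled rises were none without Het-labelled replicate 1, 3 without replicate 2 and 1 without WT-labelled replicate 1.

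**Figure D4:**
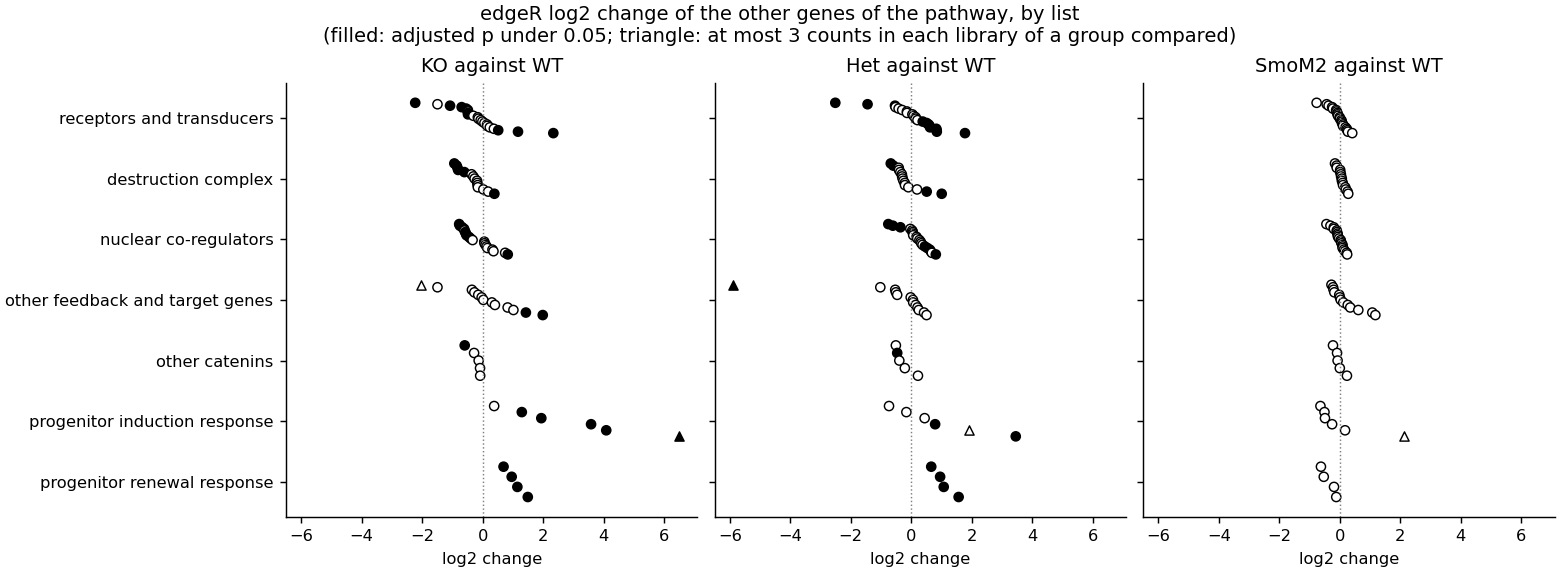
edgeR log2 change (horizontal axes) of each tested gene of 7 lists (vertical axis) against the WT-labelled libraries, for KO-, Het- and SmoM2-labelled groups; filled symbols have an adjusted p under 0.05, and triangles are genes with at most 3 counts in each library of a group compared, whose fitted size is no bound. In the KO panel the induction and renewal responses lie to the right with 5 of 6 and 4 of 4 filled, and in the SmoM2 panel no symbol is filled.

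Of the other feedback and target genes, 13 of 16 were tested, and 2 (15.4%) rose and none fell between KO- and WT-labelled libraries, near the 11.6% of all genes that rose, with a median log2 change of 0.02. The pair was Ccnd1, the cyclin D1 gene (1.99, edgeR adjusted p 0.0106), and Bambi, a pseudoreceptor of BMP and TGF-beta signals (1.43, edgeR adjusted p 0.00305). Ccnd1 had 361 and 452 CPM in the KO-labelled, 29.4 to 72.5 in the Het-labelled, 52.7 to 153 in the WT-labelled and 101 to 160 CPM in the SmoM2-labelled libraries. Bambi had 22.1 and 31.8 CPM in the KO-labelled and at most 14.3 CPM in the other libraries. Both passed against the WT-labelled libraries in all 17 alternatives. Wif1, a secreted Wnt inhibitor, had no count in either Het-labelled library and between 0.932 and 0.980 CPM in the WT-labelled ones. This is at least 2.10-fold lower against a floor of 3 counts a library. It was the single gene of the list called in that comparison (edgeR adjusted p 0.0170). This is 7.69% of the 13, where 12.2% of all genes fell. The call did not hold with DESeq2, without either Het-labelled library or with the 2 groups alone. Of 5 other catenins tested, 1 (20%) fell and none rose between KO- and WT-labelled libraries, where 11.4% of all genes fell. The gene was Ctnnd1, the p120 catenin gene (-0.59, edgeR adjusted p 0.0199), a call lost without KO-labelled replicate 1, without WT-labelled replicate 1 and with GC and length trends removed. Between Het- and WT-labelled libraries 1 of the 5 (20%) fell and none rose, where 12.2% of all genes fell. This was Ctnnal1 (-0.46, edgeR adjusted p 0.0373), a call lost without either Het-labelled library, among other settings.

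Of 6 genes that stand for the induction of progenitors by beta-catenin, 5 rose between KO- and WT-labelled libraries, where 11.6% of all genes did, with a median log2 change of 2.76, and 5 of these 6 genes are also among the committing-nephron markers above. Fgf8, a growth factor of the forming nephron, went from 4.01 and 8.28 to 89.9 and 116 CPM (4.09, edgeR adjusted p 2.28e-05). Lhx1, a transcription factor of the renal vesicle, rose by 3.58 (edgeR adjusted p 0.000340), the Notch ligand gene Jag1 by 1.94 (edgeR adjusted p 0.00359) and Pax8 by 1.29 (edgeR adjusted p 0.000141). Emx2, with at most 3 counts in each WT-labelled library, was in the KO-labelled ones at least 49.2-fold higher. Wnt4, which drives the change of progenitors into epithelium, stood at 292 to 320 CPM in the KO-labelled and 203 to 268 CPM in the WT-labelled libraries (0.38, edgeR adjusted p 0.451). Between Het- and WT-labelled libraries 2 of the 6 rose, Fgf8 (3.46) and Pax8 (0.79), where 13.1% of all genes did.

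Of the renewal response, 4 genes were tested and all 4 rose in both the KO- and the Het-labelled libraries against the WT-labelled ones, where 11.6% and 13.1% of all genes rose, with median log2 changes of 1.05 and 1.01 in comparisons that share the WT-labelled libraries. Fam19a5, a secreted chemokine-like protein, rose by 1.49 and 1.07. Cited1, which is also among the nephron progenitor markers above, rose by 1.15 and 1.57. Uncx, a homeobox gene, rose by 0.96 in both, and Pla2g7, a phospholipase gene, by 0.69 and 0.66. These calls held in all 17 alternatives. None of the 4 passed between KO- and Het-labelled libraries, where 1 had an unadjusted edgeR p under 0.05, as did 3694 of 13459 genes. Nor did any pass between SmoM2- and WT-labelled libraries, where their median was -0.36. No gene of the 7 lists was called by edgeR in the SmoM2- against WT-labelled comparison, with 0.223% of all genes called, and DESeq2 called none of them either. With no filter on low counts, edgeR called Ror2, Wnt4 and Cited1 lower and Myc higher there, genes named after their values were seen. In the main fit, an unadjusted edgeR p under 0.05 was found there for 3 receptors and transducers, 1 nuclear co-regulator and 1 other feedback gene. It was also found for 1 induction gene and 2 renewal genes, and for 1036 of all 13459 tested genes.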

How the data were processed

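Polyadenylated RNA of sorted cells was sequenced in 8 libraries. The authors deposited 1 table of raw read counts per gene symbol, with a gene length and RPKM values, per the file headers. Reads were handled with STAR, Subread and featureCounts on mm10, per the submitters' processing notes; the annotation and strand setting are not given in the sources used here, so overlapping and antisense genes cannot be told apart. The deposited RPKM values are per length and per library total, of which the listed counts made up 81.1% to 83.3%.

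Tests of the counts used edgeR 4.0.16 (R 4.3.3; filterByExpr on group, TMM scaling, 1 quasi-likelihood fit of the 4 groups with 4 residual degrees of freedom, two-sided, Benjamini-Hochberg over 13459 genes, threshold 0.05). The biological coefficient of variation was 13.5%. Standard errors are those implied by the F statistic, and CPM use the TMM-scaled size, with a prior count of 2 in log2 CPM. A 2 against 2 exact permutation test cannot go below 0.333 and was not used. Alternatives were DESeq2 1.42.0, other scalings and filters, each library left out (the lone library of its group is then assumed to vary like the other groups), the replicate block, the sex of the embryos, the 2 groups alone, and GC and length trends removed (GC known for 97.9% of tested genes and all 8 members). The scripts were tested on simulated data. Gene positions and promoters came from GRCm38.

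The members and lists were chosen with earlier results of these data known. All members are named, with up to 3 called genes that rose and 3 that fell per list and comparison, the members of the progenitor responses, and the 3 genes most like Lef1, Axin2 and Ctnnb1, of which 1 is not reported here. Tle5 and Tafa5 did not match the table, which holds the symbols Aes and Fam19a5. Aes, which is counted, is an older symbol of Tle5, and Fam19a5 one of Tafa5.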

Additional observations from a re-analysis of the deposited data

How the results depend on the processing

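Of 944 alternative values for the 8 genes over the 7 tests, 835 kept direction and side of the threshold, 50 lost the call, 22 gained one and 37 changed sign; every sign change was of a value not called in either analysis. The cause of these shifts was not tested. With each library left out in turn, the number of all genes called ran from 1304 to 2924 (KO- against WT-labelled), 1401 to 3615 (Het- against WT-labelled), 8 to 81 (SmoM2- against WT-labelled), 36 to 1472 (KO- against Het-labelled), 2423 to 4440 (KO- against SmoM2-labelled), 2409 to 4732 (Het- against SmoM2-labelled), 3656 to 5510 (4-group). The number of the 8 genes called ran from 1 to 4 (KO- against WT-labelled), 1 to 3 (Het- against WT-labelled), 0 to 0 (SmoM2- against WT-labelled), 0 to 3 (KO- against Het-labelled), 2 to 6 (KO- against SmoM2-labelled), 1 to 4 (Het- against SmoM2-labelled), 3 to 7 (4-group). Genes called between SmoM2- and WT-labelled libraries, 30, became 76 with DESeq2, 356 with no filter, 54 with the replicate block, 54 with the sex covariate and 8 with only these 2 groups. KO- against Het-labelled calls, 1269, became 2217 with no filter and 339 with GC and length trends removed. Members called were 5 in place of 3 between KO- and SmoM2-labelled libraries with no filter and with only these 2 groups, and 1 in place of 2 between Het- and WT-labelled libraries with GC and length trends removed. 

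The replicate block, taken from the numbers in the labels, called 4 of the 8 genes between KO- and SmoM2-labelled libraries, where it called Lef1 (1.13, adjusted p 0.00730), and changed no other call of a member. Same-numbered libraries deviated together with correlations from -0.06 to 0.39, so the numbers are taken as names only. Scaling moved the split of calls: KO- against Het-labelled calls were 583 higher and 686 lower, 502 and 942 with DESeq2, and 938 and 511 with the RPKM totals. KO- against SmoM2-labelled calls were 2218 and 2154, and 2779 and 1645 with the RPKM totals, which put the median of all genes at 0.14. SmoM2- against WT-labelled calls were 21 and 9, and 16 and 11 with the RPKM totals. 

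The sign changes by setting, as log2 changes, were these. With DESeq2: Tcf7 -0.029 (KO- against Het-labelled). With RLE size factors: Tcf7 -0.028 (KO- against Het-labelled). With the RPKM totals: Ctnnb1 0.045 (KO- against Het-labelled). With no filter: Tcf7 -0.011 (KO- against Het-labelled). With a minimum of 10 counts in every sample: Tcf7 -0.017 (KO- against Het-labelled). With the sex covariate: Ctnnb1 0.035 (KO- against Het-labelled), Nkd1 0.23 (KO- against Het-labelled), Tcf7 -0.11 (Het- against SmoM2-labelled). With only the 2 groups compared: Tcf7 -0.0011 (KO- against Het-labelled). With GC and length trends removed: Sp5 -0.18 (KO- against WT-labelled), Tcf7 -0.016 (KO- against Het-labelled), Nkd1 0.032 (KO- against Het-labelled), Tcf7 -0.077 (KO- against SmoM2-labelled), Tcf7 -0.060 (Het- against SmoM2-labelled), Sp5 -0.20 (Het- against SmoM2-labelled). With single libraries left out: Ctnnb1 -0.13 to 0.054 (KO- against Het-labelled), Tcf7 -0.19 to 0.17 (KO- against Het-labelled), Tcf7 -0.15 to 0.22 (KO- against SmoM2-labelled), Lef1 -1.13 to 0.19 (Het- against WT-labelled), Tcf7 -0.10 to 0.13 (Het- against SmoM2-labelled), Sp5 -0.81 to 0.39 (Het- against WT-labelled), Lef1 -0.26 to 0.75 (SmoM2- against WT-labelled), Sp5 -1.07 to 0.10 (SmoM2- against WT-labelled), Sp5 -0.36 to 0.84 (KO- against WT-labelled), Tcf7l1 -0.23 to 0.035 (SmoM2- against WT-labelled), Tcf7l2 -0.25 to 0.050 (SmoM2- against WT-labelled), Nkd1 -0.41 to 0.13 (SmoM2- against WT-labelled), Sp5 -0.019 to 0.59 (Het- against SmoM2-labelled). Lef1, at 25 to 94 reads a library, was the gene most limited by depth, and 2 libraries a group limit all values.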
